A study of Saccharomyces cerevisiae with 24 samples.

Results

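The 10 genes described here encode RNA helicases of the DEAD-box family that act in ribosome assembly in budding yeast (Saccharomyces cerevisiae). They are DBP2, DBP3, DBP6, DBP7, DBP9, DBP10, MAK5, HAS1, DRS1 and SPB4, and they were chosen by open reading frame (ORF) name. All 10 were present among the 6575 ORFs of the expression table and among the 4427 ORFs of the promoter and gene body tables. Ribosome assembly begins in the nucleolus, where ribosomal RNA is transcribed, folded, modified, cut and bound by ribosomal proteins. DEAD-box proteins use ATP to open short RNA duplexes or to displace bound proteins and small nucleolar RNAs, and each acts at its own step. In growing yeast the genes for these factors are strongly transcribed, and they are known to be turned down together in many kinds of stress.

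Cells of the W303 laboratory strain (mating type MATa, with the alleles ade2-1, can1-100, his3-11,15, trp1-1 and ura3-1 and a mutant leu2 allele) were grown in rich medium at 30 °C. Samples were taken at 0 min, before any metal was added, and 7.5, 15, 30, 60 and 120 min after cadmium chloride was brought to 1 mM. The labels list 24 samples, with 2 RNA and 2 chromatin samples at each time point, and the series text calls the chromatin replicates technical. The chromatin had been cut with micrococcal nuclease (MNase), which spares DNA covered by proteins.

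Each of the 3 deposited tables held 1 column per time point and named no replicate, so every value below is the authors' value for that time. No comparison has a replicate check, no p-value is given, and errors are counting errors. Expression is in TPM, which is scaled for gene length and allows levels to be compared between genes. The columns rested on 31543389 to 33946108 implied reads and on 653634 to 1050068 promoter fragments. TPM is a share of all transcripts, so fewer expressing cells and less RNA per cell cannot be told apart. The strain label was met in the RNA: the a-cell genes MFA1, MFA2, STE2 and BAR1 stood at 131 to 1021 TPM at 0 min, and the alpha-cell genes MF(ALPHA)1, MF(ALPHA)2 and STE3 at 0.204 to 1.20 TPM. STE3 was higher later, with 11.3 TPM at 120 min.

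Transcripts of all 10 helicase genes were lower at each of the 5 times after cadmium than at 0 min. Together they made up 2494 TPM at 0 min, 1551 TPM after 7.5 min, 392 TPM after 15 min, 133 TPM after 30 min, 108 TPM after 60 min and 139 TPM after 120 min. The sum was thus 4.34% of its 0 min value at 60 min and 5.59% at 120 min. A gene was counted as lower where its log2(TPM + 1) was at least 1 below the 0 min value. By this measure 2 of the 10 fell at 7.5 min (DBP2 and DBP7), when 1.74% of all 5965 ORFs averaging 1 TPM or more did. All 10 fell at 15 min, against 12.6% of those ORFs, and all 10 stayed past the threshold at 30, 60 and 120 min, against 16.7%, 18.5% and 20.2%. A fall of at least 2 was seen in none of the 10 genes after 7.5 min (0.151% of ORFs), in 8 after 15 min (4.34%) and in 9 after 30 min (8.68%), 60 min (10.4%) and 120 min (11.3%). None of the 10 was higher by 1 at any time, whereas 3.3% of ORFs were after 7.5 min, 18.3% after 15 min, 29.8% after 30 min, 34.8% after 60 min and 33.8% after 120 min. The median change of the 10 genes was -0.56 after 7.5 min, -2.60 after 15 min, -4.26 after 30 min, -4.45 after 60 min and -3.98 after 120 min. The median of all ORFs moved by -0.10, 0.11, 0.35, 0.44 and 0.34 at these times, and relative to it the 10 genes were at -0.46, -2.71, -4.61, -4.89 and -4.32.

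**Figure D1:**
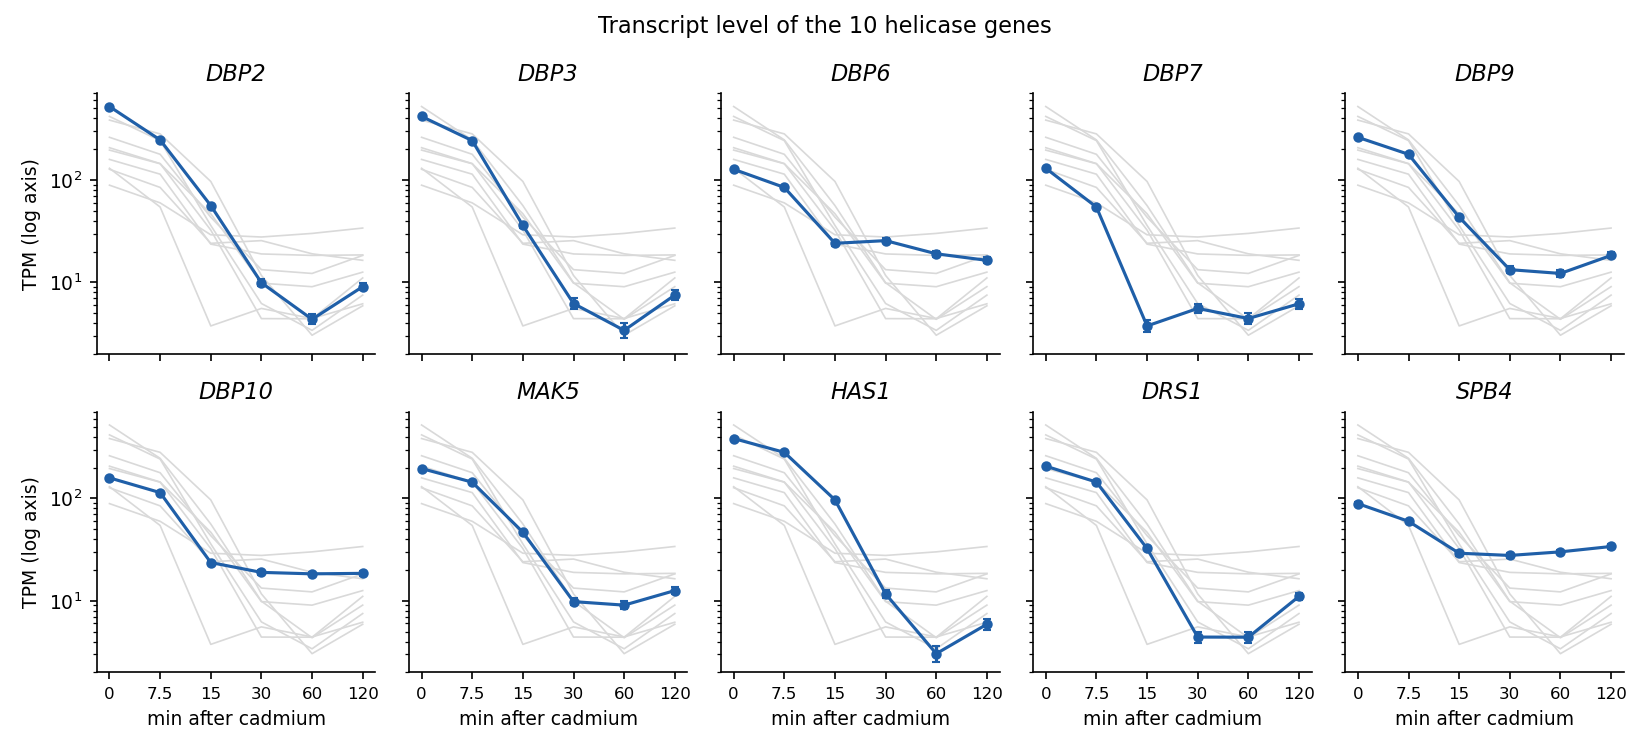
TPM on a log axis against the sampling time in min (evenly spaced, not to scale), with 1 panel per gene. Blue points are the deposited values with 95% counting intervals, and grey lines are the other genes; HAS1 has the lowest point of all at 60 min (3.04 TPM) and SPB4 stays above 27 TPM throughout.

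DBP2 and DBP3 had the highest levels before cadmium. DBP2 (YNL112W, chromosome XIV, 413639 to 416281, plus strand, R64) encodes a helicase that works on ribosomal RNA precursors and also on messenger RNA. Its level was 522 TPM at 0 min, 246 after 7.5 min, 56.3 after 15 min, 9.91 after 30 min, 4.35 after 60 min and 9.08 after 120 min. Among all 10 genes it lost the largest number of TPM within 7.5 min, when it stood at 47.2% of its level at 0 min. The change at 60 min was -6.61 ± 0.08 (counting error) on the log2(TPM + 1) scale, and only 4 of the 5965 ORFs had a lower one. The size depends on the pseudocount, with -6.87 for 0.1 TPM and -5.82 for 5 TPM, where 7 and 4 ORFs had a lower change. The gene contains an intron, and the length that gives whole reads for DBP2 is the 2643 bases of the complete gene, so its level per coding base is understated.

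DBP3 (YGL078C, chromosome VII, 360288 to 361859, minus strand) encodes a helicase needed for efficient cutting of the ribosomal RNA precursor between the parts of the small and the large subunit. Its level was 418 TPM at 0 min, 242 after 7.5 min, 36.0 after 15 min, 6.21 after 30 min, 3.40 after 60 min and 7.51 after 120 min. The change at 60 min was -6.57 ± 0.12, close to that of DBP2, and -6.90 or -5.65 with pseudocounts of 0.1 or 5 TPM. The 2 genes were each other's nearest ORF by expression profile, with a Euclidean distance of 0.52 over the 5 log2 changes, among 5410 ORFs averaging 10 TPM or more.

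DBP6, DBP7 and DBP9 act in the earliest particles of the large subunit, where Dbp6 forms a complex with other assembly factors and Dbp7 helps to release a small nucleolar RNA. DBP6 (YNR038W, chromosome XIV, 695595 to 697484, plus strand) stood at 127 TPM at 0 min, 84.6 after 7.5 min, 24.1 after 15 min, 25.6 after 30 min, 19.0 after 60 min and 16.4 after 120 min. It was the member with the second smallest change at 60 min, -2.68 ± 0.05.

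DBP7 (YKR024C, chromosome XI, 485144 to 487372, minus strand) was the quickest of the 10. It stood at 130.2 TPM at 0 min, 54.5 after 7.5 min, 3.75 after 15 min, 5.56 after 30 min, 4.43 after 60 min and 6.17 after 120 min. Its change at 15 min was -4.79 ± 0.10, and only 2 of the 5965 ORFs had a lower one at that time. DBP7 was at its lowest after 15 min, before any other member, and after 30 min it was 1.48 times higher than after 15 min.

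DBP9 (YLR276C, chromosome XII, 695046 to 696830, minus strand) was the typical member. Its level was 261 TPM at 0 min, 178 after 7.5 min, 43.3 after 15 min, 13.3 after 30 min, 12.2 after 60 min and 18.3 after 120 min. The distance of its profile from the median profile of the 10 genes was 0.27, against 0.61 for MAK5, the next closest of them, and 4.82 for SPB4, the farthest.

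MAK5, DBP10, DRS1 and SPB4 act in successive large subunit particles of the nucleolus. MAK5 (YBR142W, chromosome II, 528317 to 530638, plus strand), named for its part in maintaining the killer virus, stood at 196 TPM at 0 min, 144 after 7.5 min, 46.8 after 15 min, 9.82 after 30 min, 9.07 after 60 min and 12.6 after 120 min. DBP10 (YDL031W, chromosome IV, 394217 to 397204, plus strand), whose protein binds the RNA of the later peptidyl transferase centre, stood at 159 TPM at 0 min, 114 after 7.5 min, 23.6 after 15 min, 18.9 after 30 min, 18.3 after 60 min and 18.5 after 120 min. Between 15 and 30 min MAK5 fell by a further 2.14 on the log2 scale, whereas DBP10 fell by 0.30 and was nearly level after that.

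DRS1 (YLL008W, chromosome XII, 131729 to 133987, plus strand), whose protein works beside the Nop7, Erb1 and Ytm1 complex, stood at 207 TPM at 0 min, 145 after 7.5 min, 32.4 after 15 min, 4.42 after 30 min, 4.41 after 60 min and 11.0 after 120 min. The value at 120 min was 2.51 times that at 60 min, with a 95% counting interval of 2.17 to 2.89, the largest late recovery among the 10.

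SPB4 (YFL002C, chromosome VI, 145114 to 146934, minus strand) had the smallest fall. Its level was 89.0 TPM at 0 min, 59.8 after 7.5 min, 29.2 after 15 min, 27.7 after 30 min, 30.1 after 60 min and 33.9 after 120 min. Its change at 60 min was -1.53 ± 0.04, and at its lowest it still had 31.2% of its level at 0 min.

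HAS1 (YMR290C, chromosome XIII, 850074 to 851591, minus strand) is needed for both subunits and for the release of small nucleolar RNAs. It stood at 385 TPM at 0 min, 282 after 7.5 min, 96.8 after 15 min, 11.7 after 30 min, 3.04 after 60 min and 5.90 after 120 min. HAS1 was late and deep. At 15 min it still had 25.2% of its level at 0 min and the highest level of the 10, and at 60 min it had 0.791% and the lowest level. Its change at 60 min was -6.58 ± 0.13, and -6.94 or -5.60 with pseudocounts of 0.1 or 5 TPM.

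The timing of the falls separated the genes after 15 min. By log-linear interpolation between columns, the 10 genes reached 50% of their level at 0 min after 5.96 min (DBP7) to 10.6 min (SPB4), with a median of 9.19 min. Of the ORFs with at least 10 TPM at 0 min, 1079 were lower by 1 or more at 60 min and above 0 in every column, and their median was 13.0 min. In 2 lists described below, the median was 8.33 min for 9 other helicases of ribosome assembly and 9.42 min for 12 partner proteins. An early loss was thus not particular to the 10 genes. The largest step between neighbouring columns lay between 7.5 and 15 min for 6 genes and between 15 and 30 min for DBP2, MAK5, HAS1 and DRS1. The later interval is the longer one, 15 min against 7.5 min, so a larger step is not a faster fall. The earlier and later steps were -2.11 and -2.39 for DBP2, -1.60 and -2.14 for MAK5. They were -1.53 and -2.95 for HAS1, -2.12 and -2.62 for DRS1. Per min, each of these genes thus fell faster in the earlier interval. Between 15 and 30 min, 6 genes (DBP2, DBP3, DBP9, MAK5, HAS1 and DRS1) changed by a further -1.63 (DBP9) to -2.95 (HAS1) on the log2 scale. The other 4 genes (DBP6, DBP7, DBP10 and SPB4) moved by -0.30 to 0.47 over that interval, and at all later times they stayed within 1 on the log2 scale of their level at 15 min.

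Most of the genes were higher at 120 min than at 60 min, though still below their level at 0 min. The level was lowest after 60 min for 7 genes, after 15 min for DBP7, after 30 min for SPB4 and after 120 min for DBP6. Several of these minima are not firm. DRS1 had 4.42 TPM at 30 min and 4.41 at 60 min, and DBP10 18.3 at 60 min and 18.5 at 120 min. For MAK5, DBP9 and SPB4 the 95% counting intervals at 30 and 60 min overlapped. For DBP7 those at 15 and 60 min did. The ratio of the level at 120 min to that at 60 min had a 95% counting interval above 1 for 8 of the 10 genes. The share of all ORFs with such an interval was not computed, so the count is not shown to be particular to these genes. For DBP2, DBP3 and HAS1 these ratios were 2.08, 2.21 and 1.94. For DBP10 the ratio was 1.01 (0.94 to 1.09), and for DBP6 it was 0.863 (0.786 to 0.948). No gene was above 38.1% of its level at 0 min by 120 min, the value of SPB4, and DBP2, DBP3 and HAS1 were at 1.74%, 1.80% and 1.53%.

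The order of the levels was nearly turned round. At 0 min it was DBP2, DBP3, HAS1, DBP9, DRS1, MAK5, DBP10, DBP7, DBP6 and SPB4, with a 5.87-fold range, and only DBP7 and DBP6 lay within counting error of each other. At 60 min it was SPB4, DBP6, DBP10, DBP9, MAK5, DBP7, DRS1, DBP2, DBP3 and HAS1, with a 9.88-fold range. At that time DBP6 and DBP10 lay within counting error of each other, as did DBP7 and DRS1, and DBP3 and HAS1. DBP2 has no firm place among the lower levels at 60 min, since its TPM counts the intron in its length. Across the 10 genes the levels at 0 and 60 min (log2 TPM) had a Pearson correlation of -0.73 and a Spearman correlation of -0.83, given as a description of genes that share the same 2 columns. Without DBP2 they were -0.73 and -0.82 over 9 genes.

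Other genes were compared by lists set up with earlier results of these data known. A list of 9 other helicases of ribosome assembly, most of them of the small subunit, had 4 members lower by 1 or more at 7.5 min and all 9 at each later time. Its median change was -0.71 after 7.5 min, -3.24 after 15 min, -4.46 after 30 min, -4.37 after 60 min and -3.78 after 120 min. The member with the largest mean change was DHR2, a helicase of small subunit assembly, with 87.8 TPM at 0 min, 1.63 after 15 min and 1.29 after 60 min. The one with the smallest was RRP3, which acts in the same branch, with 135 TPM at 0 min, 41.0 after 15 min and 15.0 after 60 min.

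A list of 12 proteins known to work with the helicases in large subunit particles had no member past the threshold at 7.5 min and all 12 lower from 15 min on. Its median change was -2.54 after 15 min, -3.73 after 60 min and -3.58 after 120 min. ERB1, part of the complex beside Drs1, had the largest mean change, with 3.41 TPM at 60 min, against 309 TPM at 0 min. NOP16 had the smallest, with 26.6 TPM at 60 min, against 180.0 TPM at 0 min.

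Of the DEAD-box genes with other roles, some passed the threshold and most did not. Of 11 such genes, which act in translation, splicing, export, decay of messenger RNA and mitochondria, 3 were lower by 1 or more at 60 min, against 18.5% of all ORFs, and 1 was higher. With smaller changes included, 8 of the 11 were below their 0 min level at 60 min and 9 at 120 min. Of all 5965 ORFs, 2262 were below it at 60 min and 2453 at 120 min. The 3 at 60 min were the translation initiation helicases DED1, TIF1 and TIF2. At 120 min they were TIF1 (-3.55), TIF2 (-2.34) and SUB2 (-1.48), an export and splicing helicase, with DED1 at -0.97. These 4 genes were named after their values were seen, and TIF1 and TIF2 are near-identical copies whose reads may have been split. The list of 11 had a median change of -0.15 after 7.5 min, -0.23 after 15 min, -0.57 after 30 min, -0.72 after 60 min and -0.78 after 120 min. The gene that rose was DBP1, a relative of DED1, with 2.17 TPM at 0 min, 16.9 after 15 min, 43.3 after 60 min and 72.8 after 120 min. PRP5, a splicing helicase, had the smallest mean change of the list, with 26.4 TPM at 60 min, against 23.9 TPM at 0 min. The difference between the lists was not tested.

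**Figure D2:**
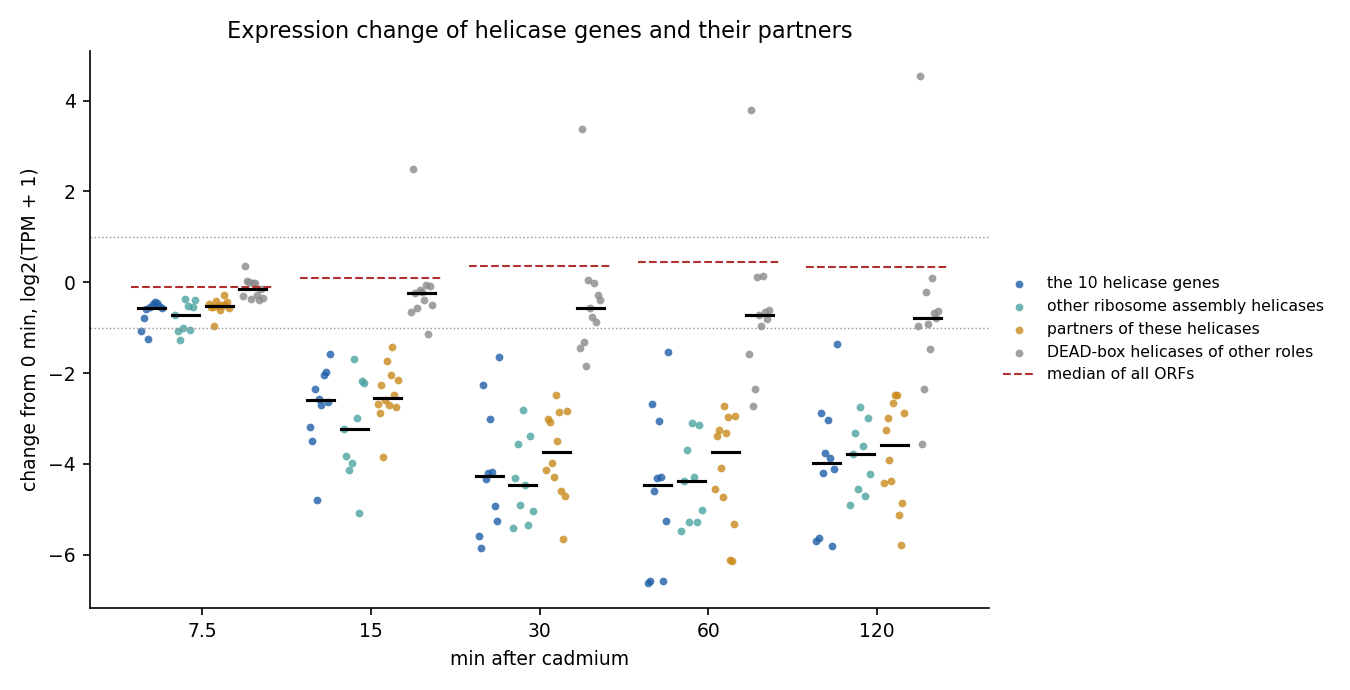
Change from 0 min in log2(TPM + 1) at each time after cadmium, with 1 point per gene in 4 lists, black bars at list medians, dashed lines at the median of all ORFs and dotted lines at -1 and 1. At 60 min the medians are -4.45 for the 10 helicase genes, -4.37 for the other assembly helicases, -3.73 for the partners and -0.72 for the DEAD-box genes of other roles, whose high point is DBP1.

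Outside the 10 genes, among ORFs averaging 10 TPM or more, the profile nearest to their median profile was that of NAN1, with a Euclidean distance of 0.22 over the 5 log2 changes. TSR1 (0.35), NOC3 (0.38), UTP20 (0.38) and RLP7 (0.44) came next. All 5 encode ribosome assembly factors, NOC3 and RLP7 of the large subunit and the others of the small subunit. NAN1 stood at 291 TPM at 0 min, 194 after 7.5 min, 41.4 after 15 min, 14.9 after 30 min, 13.2 after 60 min and 18.3 after 120 min. It was also the ORF nearest to DBP9 (0.27), and UTP20 the one nearest to MAK5 (0.35). BRX1, a large subunit assembly factor, was nearest to HAS1 (0.50), RRP8, a ribosomal RNA methyltransferase, to DRS1 (0.50), and AFG2, an ATPase of large subunit maturation, to SPB4 (0.15). YMC2, a mitochondrial carrier, was nearest to DBP6 (0.30), the uridine kinase URK1 to DBP10 (0.17), and the transcriptional repressor TOD6 to DBP7 (0.76). DBP7, the member with the quickest fall, thus had the most distant nearest profile.

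Taken as a sum, the promoters of the 10 genes kept their share of small MNase fragments while the transcripts were lost. The shares of single promoters varied in both directions. Such fragments mark DNA protected by something smaller than a nucleosome, such as a transcription factor. Summed over the 10 promoters, they were 2019 per 1000000 fragments of the table at 0 min, 1990 after 7.5 min, 1998 after 15 min, 1861 after 30 min, 1933 after 60 min and 2024 after 120 min. Per 1000000 fragments, the DBP3 promoter had 135 (95% Poisson interval 112.8 to 161.1) after 60 min, against 192 (161.1 to 226.9) at 0 min. The DRS1 promoter had 157 (131 to 187) after 30 min, against 217 (184 to 254) at 0 min, so its intervals overlap. The MAK5 promoter had 342 (300 to 387) after 15 min, against 247 (211 to 286) at 0 min. It had 251 after 7.5 min and 264 after 30 min. These examples were picked after the values were seen. The counts themselves added up to 2125 at 120 min, against 1441 at 0 min, with the growing total of the table. Changes were taken as differences of log2(count + 63), where 63 fragments is the 10th percentile of the table. The median change of the 10 was -0.08 after 7.5 min, -0.06 after 15 min, -0.01 after 30 min, 0.25 after 60 min and 0.38 after 120 min. With the median over all promoters taken away they came to 0.01, -0.07, -0.13, -0.03 and -0.02.

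A change of 0.5 in either direction was reached by none of the 10 at 7.5, 15, 30 and 60 min. The shares of all promoters that were higher by 0.5 at those times were 0.452%, 1.51%, 4.13% and 14.3%, and the shares that were lower were 0.248%, 0.768%, 0.791% and 0.632%. At 120 min, 3 of the 10 were higher by 0.5 (DBP10, MAK5 and HAS1), against 32.4% of all promoters, and none was lower, against 0.768%. With every column divided by its median, none of the 10 reached 0.5 at any time. With a pseudocount 10 times smaller, DBP2 was lower by 0.5 at 7.5, 15 and 60 min, against 4.56%, 3.48% and 1.31% of all promoters. DBP9 was lower at 30 min, against 2.19%. In that setting 3 genes were higher at 60 min, against 33.2% of all promoters, and 5 at 120 min, against 53.9%. HAS1 had 132 fragments at 0 min, 134 after 7.5 min, 146 after 15 min, 171 after 30 min, 204 after 60 min and 233 after 120 min. Its count was thus higher at every later time, but these counts are not scaled for depth. The whole table held 1050068 fragments at 120 min, against 713795 at 0 min. Divided by the column medians, the log2 change of HAS1 was 0.11 after 7.5 min, 0.06 after 15 min and 0.13 after 30 min. It was 0.15 after 60 min and 0.16 after 120 min. Whether the HAS1 promoter gained fragments beyond depth was not tested.

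DBP2 was the only member with fewer promoter fragments at 120 min than at 0 min. Its promoter had the lowest count of the 10 at 0 min, and its counts were 55 at 0 min, 23 after 7.5 min, 33 after 15 min, 42 after 30 min, 34 after 60 min and 39 after 120 min. Per 1000000 fragments of the table, its 95% Poisson interval was 22.3 to 52.8 at 7.5 min, 25.1 to 50.6 at 60 min and 26.4 to 50.8 at 120 min, against 58.0 to 100.3 at 0 min. At 15 min the interval was 31.4 to 64.1 and at 30 min 37.1 to 69.6. The intervals hold counting error only and no variation between libraries. How often other promoters differ from 0 min to this extent is not given here, so the fall was not tested. Divided by the column medians, the log2 change was -0.46 after 7.5 min, -0.34 after 15 min, -0.26 after 30 min, -0.45 after 60 min and -0.45 after 120 min. DBP9 had a similarly low promoter, with 59 fragments at 0 min, 57 after 7.5 min, 48 after 15 min, 34 after 30 min, 89 after 60 min and 78 after 120 min, so it had its lowest count after 30 min. Per 1000000 fragments this was 41.7 (28.9 to 58.3) after 30 min, against 82.7 (62.9 to 106.6) at 0 min.

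For 6 of the 10 genes the upstream region is shared with a gene that starts within 500 bases on the other strand, by the R64 annotation. The distance between the starts is 197 bases for SPB4 and DEG1, 268 for DBP6 and RSM19, 279 for MAK5 and BMT2, 305 for DBP10 and SLM3, 315 for DRS1 and COX17 and 398 for DBP7 and RPC37. Of these neighbours 4 have a row in the promoter table, and their counts were close to those of the helicase gene at all times. They differed by at most 3 fragments between DBP10 and SLM3, 10 between MAK5 and BMT2, 13 between SPB4 and DEG1 and 27 between DBP7 and RPC37. The values of these promoters therefore cannot be assigned to 1 of the 2 genes. DBP2, DBP3, DBP9 and HAS1 have no such neighbour. The share of all ORFs with one was not computed.

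Transcripts within the pairs did not always move together. RSM19, which encodes a mitochondrial ribosomal protein, was at 123 TPM at 30 min, against 35.1 TPM at 0 min, while DBP6 fell. COX17, a copper chaperone gene for cytochrome oxidase, was at 86.7 TPM at 30 min, against 28.3 TPM at 0 min, while DRS1 fell to 4.42 TPM. SLM3, a gene of mitochondrial transfer RNA modification, stayed between 27.1 and 40.6 TPM beside DBP10. BMT2, a methyltransferase gene of the large ribosomal RNA, fell with MAK5 and was quicker, with 4.91 TPM at 15 min, against 57.8 TPM at 0 min. RPC37, an RNA polymerase III subunit gene, fell to 27.1 TPM at 60 min, against 105 TPM at 0 min. DEG1, a pseudouridine synthase gene, ran close to SPB4, with 72.9 TPM at 0 min, 27.0 after 15 min and 36.3 after 120 min.

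**Figure D3:**
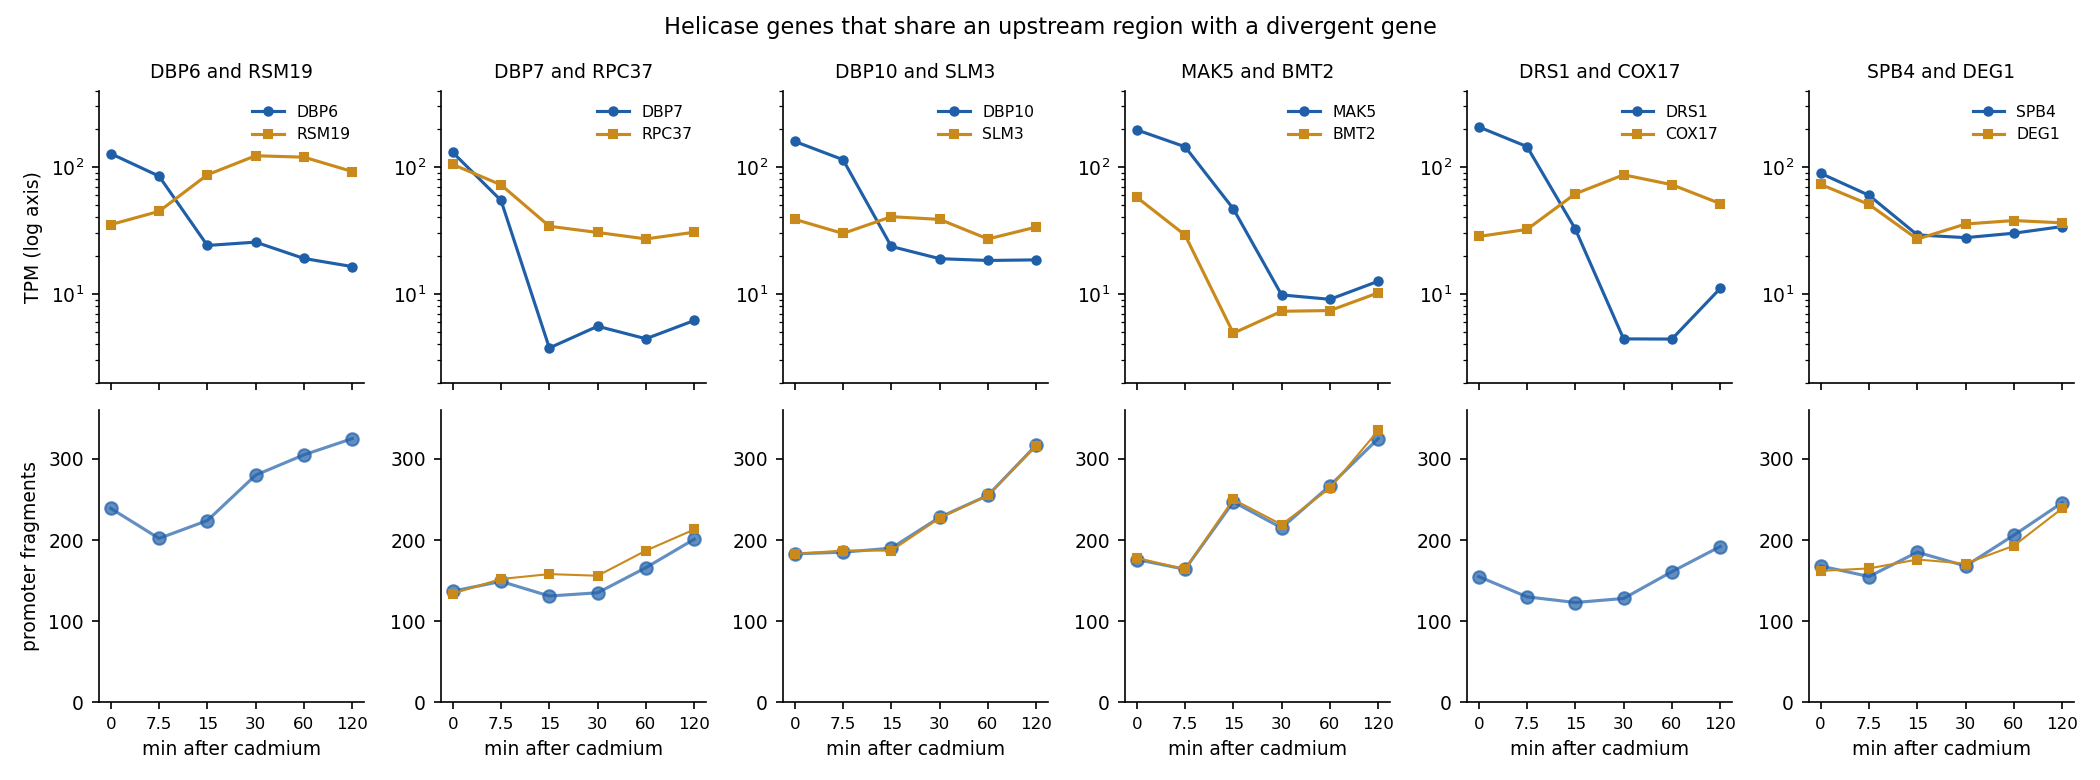
The 6 pairs of a helicase gene (blue circles) and its divergent neighbour (orange squares), with TPM on a log axis above and promoter fragment counts below, against sampling time in min (evenly spaced). RSM19 and COX17 run against their helicase gene and have no row in the promoter table; in the other 4 pairs the promoter counts nearly coincide.

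Nucleosomes over the gene bodies became more regular at most of the 10 genes. The deposited score is an entropy of nucleosome disorganization, lower where positions are more regular, and its formula and depth are not given in the sources used here. It was lower than at 0 min in 9 of the 10 genes after 7.5 min, in 10 at 15 and 30 min, in 9 after 60 min and in 10 after 120 min. Of all 4427 gene bodies, 3288 were lower than at 0 min after 7.5 min, 2866 after 15 min and 2397 after 30 min. After 60 min 1992 were lower, and after 120 min 2122. A decrease of at least 0.2 was seen in 5 genes after 7.5 min, 6 after 15 min, 7 after 30 min, 7 after 60 min and 5 after 120 min. The shares of all 4427 gene bodies with such a decrease were 4.04%, 10.8%, 10.4%, 10.5% and 12%. The count at 7.5 min depends on the scaling: after quantile normalization, or with column medians subtracted, 2 genes (DBP2 and HAS1) passed, against 2.19% or 1.85% of all gene bodies. None of the 10 was higher by 0.2 at any time, against 1.81% of all gene bodies after 7.5 min, 4.56% after 15 min, 7.95% after 30 min, 12.8% after 60 min and 14.9% after 120 min. The median difference of the 10 was -0.199, -0.319, -0.322, -0.272 and -0.228 from 7.5 to 120 min. The median of all gene bodies stayed between -0.044 and 0.017. Among the 12 partner genes, 9 were lower by 0.2 after 15 min, 8 after 30 min and 5 after 60 min. Of the other assembly helicases 8 had a score, and 5 were lower by 0.2 after 15 min, 4 after 30 min and 3 after 60 min. Such a decrease was thus not particular to the 10 genes.

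The decrease was largest at DBP2. Its entropy was 7.03 at 0 min, 6.51 after 7.5 min, 6.07 after 15 min, 6.03 after 30 min, 6.27 after 60 min and 6.17 after 120 min. At 7.5, 15 and 30 min no other of the 4427 gene bodies had a larger decrease. At 30 min 0.520% of gene bodies had a lower entropy than DBP2, against 90.1% at 0 min. HAS1 came next among the 10, with 6.68 at 0 min, 6.32 after 7.5 min, 6.06 after 15 min, 6.11 after 30 min, 6.16 after 60 min and 6.16 after 120 min. Only 7 gene bodies had a larger decrease at 7.5 min than HAS1.

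DBP7 had a regular gene body already at 0 min, when its entropy was 6.19 and 1.47% of gene bodies had a lower one. It stood at 5.95 after 7.5 min, 5.86 after 15 min, 5.88 after 30 min, 5.89 after 60 min and 5.995 after 120 min. At 15 min 0.0452% of gene bodies had a lower value. DBP3 was at 6.59 at 0 min, 6.17 after 15 min and 6.33 after 120 min, and DBP9 at 6.38 at 0 min, 5.95 after 15 min and 6.10 after 120 min. DRS1 returned almost to its starting value, with 6.51 at 0 min, 6.19 after 30 min and 6.48 after 120 min, while its transcript was still at 5.34% of its level at 0 min. DBP10 was the reverse, with 6.63 at 0 min, 6.35 after 30 min and its lowest value, 6.31, after 120 min.

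SPB4 and DBP6 hardly moved. SPB4 had the least regular gene body of the 10, with 7.10 at 0 min, 7.02 after 30 min, 7.13 after 60 min and 7.002 after 120 min. DBP6 was at 6.285 at 0 min, 6.22 after 15 min and 6.25 after 120 min. MAK5 lay between, with 6.03 at 15 min, against 6.21 at 0 min.

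**Figure D4:**
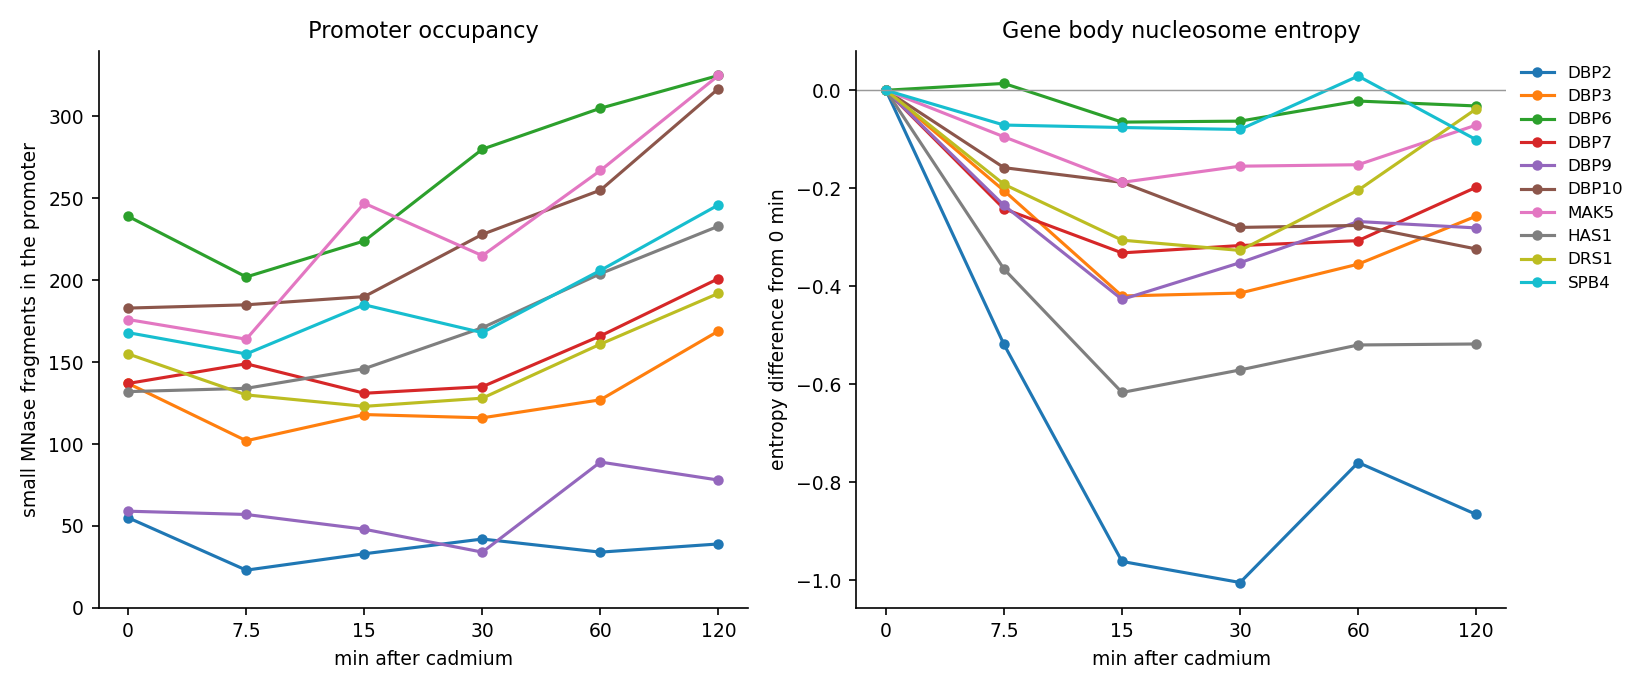
Small MNase fragments per promoter (left) and the entropy difference from 0 min over the gene body (right) against sampling time in min (evenly spaced), with 1 line per gene. Promoter counts of 9 of the 10 genes are higher after 120 min than at 0 min, with the growing total of the table, and the entropy difference of DBP2 reaches -1.005 after 30 min.

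Across the 10 genes, larger losses of transcript went with larger losses of entropy at 30 and 60 min, less so at the other times. The Pearson correlation of the expression change with the entropy change was 0.47 after 7.5 min, 0.28 after 15 min, 0.71 after 30 min, 0.83 after 60 min and 0.63 after 120 min, with Spearman correlations of 0.27, 0.33, 0.87, 0.88 and 0.55. Without DBP2, the Pearson values over 9 genes were 0.16, 0.23, 0.78, 0.85 and 0.56. The genes share the same libraries and the same 0 min columns, so these values only describe the pattern. At 15 min HAS1 had an entropy difference of -0.617 when its transcript still stood at 25.2%. The entropy was lowest at 15 min for 6 of the 10 genes, whereas the transcript was lowest at 60 min for 7 of them. The time of the transcript minimum is not firm for several of these genes, as given above. The time of the entropy minimum is not firm either. Relative to the median of all gene bodies, DBP3 was at -0.385 at 15 min and -0.401 at 30 min, and DBP6 at -0.030 and -0.050. DBP7 was at -0.297 at 15 min and -0.324 at 60 min, and MAK5 at -0.153 and -0.169. Of the 6 genes only DBP9 and HAS1 stayed lowest at 15 min on that scale, and the order of RNA and entropy was not tested.

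**Figure D5:**
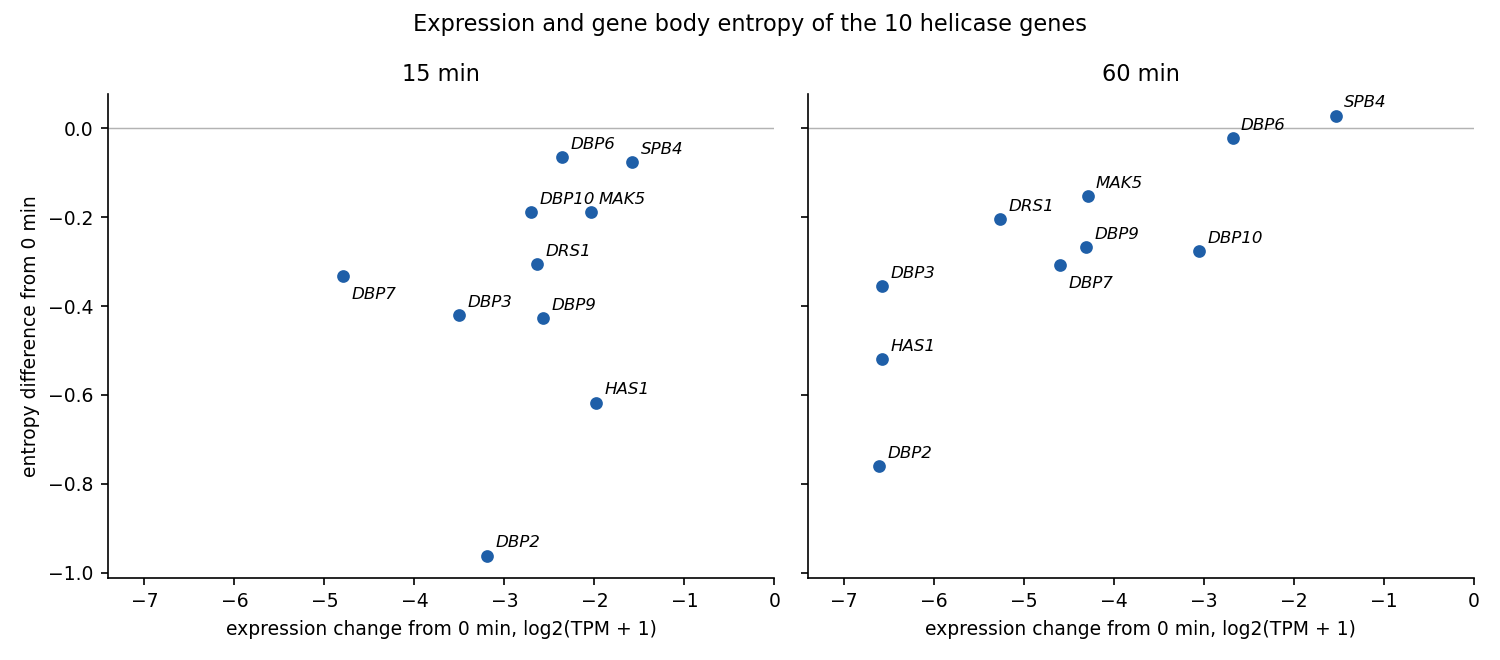
Entropy difference from 0 min against the expression change in log2(TPM + 1) at 15 min (left) and 60 min (right), with 1 point per gene. At 60 min the points run from SPB4 (-1.53 and 0.029) to DBP2 (-6.61 and -0.760); at 15 min HAS1 and DBP2 lie below the others.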

How the data were processed

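RNA and MNase chromatin of cadmium-treated yeast were measured at 6 time points. The submitters' processing notes name Bowtie 0.12.7 and the builds sacCer3 and R64, without their roles. Samples were grouped by assay and time from their titles; the series text speaks of 6 RNA samples and the labels list 12. Per the file headers, the tables the authors deposited hold TPM, whole-number promoter fragment counts and an entropy score, with 1 column per time; whether a column combines replicates, and the strand, windows and handling of shared reads, are not given in the sources used here.

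Differences from 0 min were computed with Python 3.11.15 and pandas 2.3.3 as log2(TPM + 1), log2(count + 63) and plain entropy differences, and the functions were tested on simulated data. A gene list of RefSeq for assembly R64 gave symbols and positions for 5900 of 6575 ORFs, among them all 10 genes; DBP4 of the list of other helicases was matched by its synonym under the symbol HCA4. No other protein-coding gene of that list overlaps the 10. TPM times gene length gave whole reads, within 0.02 read, for 99.5% of matched ORFs in every column. These implied reads gave counting errors and 95% intervals, which cover neither biological nor library variation.

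The 10 genes, the lists and the thresholds (1 for expression, 0.5 for promoters, 0.2 for entropy) were chosen with earlier results of these data known. All 10 are described; of each list the genes with the largest and the smallest mean change were named, and of all ORFs those nearest in profile. Limma and replicate fits planned for replicate columns were not run, since no column names a replicate.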

Additional observations from a re-analysis of the deposited data

How the results depend on the processing

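The count of the 10 genes lower in expression stayed at 10 from 15 min on with pseudocounts of 0.1 and 5 TPM, without a filter, with a filter at 10 TPM and with columns rescaled by their median ratio. At 7.5 min it was 2 as reported, 1 after rescaling and 0 at a threshold of 2. Rescaling gave median changes of -0.42 after 7.5 min, -2.71 after 15 min, -4.58 after 30 min, -4.85 after 60 min and -4.31 after 120 min. A pseudocount of 5 TPM gave -2.48 after 15 min, -3.81 after 30 min, -3.90 after 60 min and -3.56 after 120 min, and one of 0.1 TPM gave -4.42 after 30 min and -4.63 after 60 min. The median promoter change turned its sign with columns divided by their median, to 0.016 after 7.5 min, -0.075 after 60 min and -0.065 after 120 min, and has no firm direction. The count of promoters higher at 120 min was 0 in that case, against 3 as reported. With a promoter pseudocount 10 times smaller, 1 promoter was lower at 7.5, 15, 30 and 60 min, against 0 as reported. The shares of all promoters lower at those times were 4.56%, 3.48%, 2.19% and 1.31%. With that pseudocount 3 of the 10 were higher at 60 min, against 33.2% of all promoters, and 5 at 120 min, against 53.9%. The count of genes with lower entropy at 7.5 min was 2 under both alternative scalings, against 5 as reported, and at later times it was within 1 of the reported count. The median entropy difference stayed negative at all times. It was -0.158, -0.240, -0.267, -0.240 and -0.189 from 7.5 to 120 min after quantile normalization, and -0.151, -0.276, -0.313, -0.305 and -0.255 with column medians subtracted. No change of a single gene past a threshold in the reported setting turned its sign under these alternatives. The promoter changes of DBP7 and SPB4 at 120 min were both 0.53 with the smaller pseudocount. With columns divided by their median both were -0.03. No paired analysis was possible because the columns carry no replicate number, and for the same reason no replicate could be left out. Depth limits the promoter of DBP2, with 23 to 55 fragments, most.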

Other observations

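Regulators of ribosome biogenesis genes moved in different directions while the helicase transcripts fell. Of 4 such genes, TOD6, which encodes a repressor that binds a promoter element of these genes, fell with them, with 214 TPM at 0 min, 118 after 7.5 min, 8.04 after 15 min, 5.61 after 60 min and 10.5 after 120 min. Its relative DOT6 had 101 TPM at 0 min, 153 after 30 min and 107 after 120 min, without reaching a log2 change of 1. STB3, which encodes a binder of another element of these promoters and was named after its values were seen, rose to 226 TPM at 60 min, against 46.1 TPM at 0 min. At that time 34.8% of all ORFs were higher by 1 or more on the log2 scale. SFP1, also named after its values were seen, had 122 TPM at 0 min, 82.4 after 60 min and 80.5 after 120 min. It did not reach a log2 change of 1 at any time.

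The 4 helicase genes that changed little after 15 min (DBP6, DBP7, DBP10 and SPB4) all have a divergent neighbour within 500 bases, as do MAK5 and DRS1 of the other 6. This was seen after the values were known and was not tested. Without the share of all ORFs that have such a neighbour, no link with the course of the transcript can be read from it.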
